A study of Mus musculus with 14 samples.

Results

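The Ly6 surface antigens described here are Ly6d, Ly6e, Ly6c1 and Ly6a, a set chosen by changes under IL-13 in earlier results of these same arrays and found on the array by gene symbol. Of these 4 genes, 3 had a probe, with 2 probes for Ly6d and 1 each for Ly6e and Ly6c1, out of 25697 probes for 16593 named genes. All 4 probes passed the filter on low values, and the 3 genes stand among 9711 genes tested. No probe carried the symbol Ly6a, so Ly6a was not analysed here.

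Ly6 antigens are small proteins with a disulfide-rich fold, held on the outer face of the plasma membrane by a glycosylphosphatidylinositol (GPI) anchor. In the mouse most of their genes lie side by side on chromosome 15, and the wider Ly6/uPAR family adds complement inhibitors, the urokinase receptor and modulators of nicotinic receptors. Immunologists use several of them to tell blood cells apart: Ly6d (ThB) on early B lineage cells and also on squamous epithelia, Ly6c on monocytes and endothelium, and Ly6a (Sca-1) on stem cells and vessels. Ly6e (Sca-2, TSA-1) is induced by interferon and serves as a receptor for the placental fusion protein syncytin-A.

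Whole mouse liver was profiled on 14 Illumina BeadChip arrays, 1 week after a plasmid was driven into the liver by hydrodynamic delivery, a rapid high-volume injection into the tail vein. The groups were Alb-Cre livers given an IL-13 plasmid (Alb-Cre IL-13, n = 3), wild-type livers given it (wild-type IL-13, n = 3), Alb-Cre livers given an EGFP plasmid (Alb-Cre EGFP, n = 4) and wild-type livers given it (wild-type EGFP, n = 4). By the series title the Alb-Cre mice carried floxed Il4ra, which encodes a receptor chain shared by IL-4 and IL-13. The albumin promoter drives Cre in hepatocytes, and whether all other liver cells kept the gene was not checked. The labels do not say whether the wild-type mice carried the floxed allele, give no age, and do not state that each array had its own mouse, so the spread between arrays may be partly technical.

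Between 45.0% and 51.6% of probes were detected on an array (detection p under 0.05), and arrays of a group correlated at 0.980 to 0.993 over the tested genes. The hepatocyte genes Alb, Apoa1 and Ttr were detected on all 14 arrays. Il4ra itself had no probe under that name, and the deletion was not checked here. The Il13 probe read 4.46 to 4.92 on the 6 IL-13 arrays and 4.55 to 5.39 on the 8 EGFP arrays (normalized log2 intensity), so it did not mark the IL-13 groups. Of 14 genes known to respond to type 2 cytokines, 11 rose in Alb-Cre and 13 in wild-type livers (limma, adjusted p under 0.05). Of all genes, 11.1% rose in Alb-Cre and 21.5% in wild-type livers. Among the 14 listed, Retnla, the secreted resistin-like molecule alpha, rose at least 137-fold in Alb-Cre livers and at least 198-fold in wild-type livers (limma, adjusted p = 1.43e-13 and 5.32e-14). This list and those below were chosen with earlier results of these data known, so their counts and p-values are descriptions. The 3 Alb-Cre IL-13 arrays and wild-type IL-13 replicate 3 had Y-linked transcripts detected and Xist not detected, while the other 10 arrays had the reverse. In Alb-Cre livers this split coincides with the plasmid, and sex-linked and plasmid differences cannot be told apart there. Under IL-13 it also runs partly with genotype. Genotype differences under IL-13, and differences of the responses, are thus partly mixed with it. All levels below are intensities as deposited or normalized log2 values, and levels of different probes are not compared.

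Ly6d was undetected in every EGFP liver and detected in every IL-13 liver. In Alb-Cre livers its level under IL-13 differed widely from array to array. The brighter of its probes read 118, 861 and 380 in replicates 1, 2 and 3 of Alb-Cre IL-13, against 104, 104, 104 and 93.7 in Alb-Cre EGFP livers. All 3 IL-13 arrays lay above all 4 EGFP arrays, replicate 1 by little and replicate 2 by the most. The log2 means were 7.57 ± 2.42 and 4.32 ± 0.12 (SD, n = 3 and 4), a change of 3.25 ± 0.68 (limma standard error). Because the EGFP level is only a bound, the linear change is given as at least 8.10-fold, the IL-13 mean set against the lowest detected signal of each EGFP array. The Ly6d change was 4.58 without Alb-Cre IL-13 replicate 1 and 2.21 without replicate 2. It was 1.72 in the authors' deposited log2 table and 1.59 without background correction. It was 2.87 on slide 1 alone and 3.92 on slide 2 alone, where each IL-13 group has 1 array. With the sex-linked transcripts as a covariate it was 3.05 ± 1.32. Ly6d did not count among the genes called on slide 1 alone or with that covariate. Only wild-type IL-13 holds both sex-linked patterns, so the covariate's effect comes from replicate 3 of that group against the others. Values with it in Alb-Cre livers therefore do not separate sex-linked from plasmid differences.

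In wild-type livers the increase of Ly6d was larger and even across arrays. The brighter probe read 3595, 4477 and 3964 in wild-type IL-13 livers, against 105, 99.6, 105 and 101 in wild-type EGFP livers. It was detected on 3 of 3 IL-13 arrays and 0 of 4 EGFP arrays, and the groups lay far apart. On the log2 scale the IL-13 group averaged 12.12 ± 0.30 and the EGFP group 4.33 ± 0.14 (SD, n = 3 and 4), a change of 7.79 ± 0.68, or at least 194-fold. Wild-type IL-13 replicate 3, the array with Y-linked transcripts, read between the other wild-type IL-13 arrays. The increase was 7.73 for Ly6d on slide 1 alone and 7.91 on slide 2 alone. It was smaller, at 5.28, in the authors' deposited log2 table, and 5.26 without background correction.

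No other gene varied as much among the Alb-Cre IL-13 livers. The SD of 2.42 for Ly6d ranked 1 of 9711 genes in that group, and its log2 values of 4.91, 9.65 and 8.16 spanned 4.74. In wild-type IL-13 livers the SD was 0.30, with values of 11.78, 12.33 and 12.25. Within groups the residual SD of Ly6d was 1.10, against a median of 0.17 over all genes. The fit uses 1 spread per gene for all groups, so the wild-type change carries the same standard error of 0.68.

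The order of the Alb-Cre IL-13 arrays for Ly6d was set beside their order over the whole response. Over the 587 other genes at least 2-fold higher in wild-type IL-13 livers, the median change from the Alb-Cre EGFP mean was 0.95 in replicate 1, 0.95 in replicate 2 and 0.75 in replicate 3, against a wild-type median of 1.52. Over the 486 genes at least 2-fold lower it was -0.56, -0.73 and -0.40, against -1.45 in wild type. Replicate 1, lowest for Ly6d, was thus level with replicate 2 in one direction and between the other two in the other. The type 2 cytokine response genes had their highest median in replicate 1, at 1.57, with 1.18 in replicate 2 and 0.84 in replicate 3.

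Both Ly6d probes gave the same order of the IL-13 arrays. The dimmer probe read 110, 534 and 245 in Alb-Cre IL-13 livers and 2449, 2794 and 2470 in wild-type IL-13 livers, with 98.9 to 104 in the 8 EGFP livers. It was detected on all 6 IL-13 arrays and on none of the EGFP arrays, as was the brighter probe. In a fit over all kept probes its change was 2.56 ± 0.60 in Alb-Cre livers (at least 5.02-fold) and 7.19 ± 0.60 in wild-type livers (at least 122-fold). The probes share their gene and their RNA samples, so they are not replicates of each other.

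**Figure D1:**
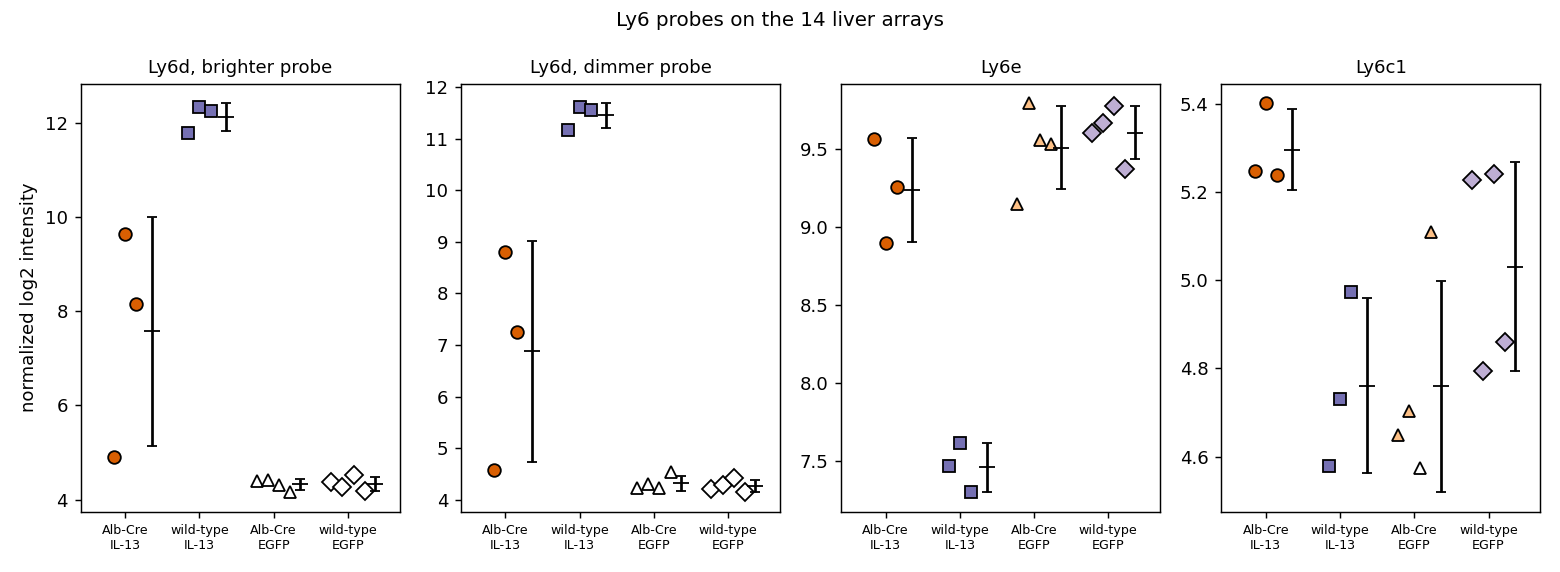
Normalized log2 intensity (vertical axis, a separate scale for each panel) of the 4 Ly6 probes on each array, by group; filled symbols are detected, open symbols not detected, and the bars show the group mean and SD. Both Ly6d probes are undetected on the 8 EGFP arrays and spread widely over the 3 Alb-Cre IL-13 arrays, and Ly6e is low on the 3 wild-type IL-13 arrays alone.

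Ly6e was close to its EGFP level in Alb-Cre livers given IL-13 and lower in wild-type livers given IL-13, and it was detected on all 14 arrays. In Alb-Cre IL-13 livers its probe read 884, 558 and 707, against 637, 991, 834 and 733 in Alb-Cre EGFP livers. The groups overlapped, with replicate 1 above 3 of the 4 EGFP arrays and replicate 2 below all of them. The log2 means were 9.24 ± 0.33 and 9.51 ± 0.27 (SD, n = 3 and 4), a change of -0.27 ± 0.17. In whole liver, fewer cells carrying a transcript and less transcript per cell cannot be told apart, for Ly6e or for any gene below.

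In wild-type IL-13 livers the Ly6e probe read 295, 282 and 223, against 930, 854, 935 and 871 in wild-type EGFP livers, with every IL-13 array below every EGFP array. The log2 means were 7.46 ± 0.16 and 9.60 ± 0.17 (SD, n = 3 and 4), a change of -2.15 ± 0.17, or 4.42-fold lower, ranked 106 among decreases. Slide 1 alone gave -2.10 and slide 2 alone -2.27.

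Ly6c1 was read close to the detection floor and moved by small amounts. Its probe was detected on 13 of 14 arrays, and the lowest detected signals of the arrays were 4.44 to 4.60 on the log2 scale. In Alb-Cre livers it read 127, 128 and 125 under IL-13, against 108, 109, 108 and 113 under EGFP, with no overlap. The log2 means were 5.30 ± 0.09 and 4.76 ± 0.24 (SD, n = 3 and 4), a change of 0.54 ± 0.15. In wild-type livers it read 111, 112 and 115 under IL-13, against 123, 109, 118 and 119 under EGFP, where the groups overlapped and the change was -0.27 ± 0.15. The Alb-Cre change was 0.13 without background correction. It was 0.65 on slide 1 alone, 0.40 on slide 2 alone and 0.22 with the sex-linked covariate, and Ly6c1 was not called in any of these last 3 fits. Nor was it called there without Alb-Cre EGFP replicate 3, at 0.48, or without Alb-Cre IL-13 replicate 2. Ly6c2 is a near-identical neighbour of Ly6c1 with no probe under its own name, so which of them this probe reads is uncertain.

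Counted by the fit over all genes, 2 of the 3 Ly6 genes were called in Alb-Cre livers, Ly6d and Ly6c1, both higher, where 18.9% of all genes were called, 11.1% higher and 7.83% lower. In wild-type livers 2 of 3 were called, Ly6d higher and Ly6e lower, where 40.7% of all genes were called, 21.5% higher and 19.2% lower. The groups of arrays did not overlap for the same genes, against 28.9% of all genes in Alb-Cre livers and 43.5% in wild-type livers. The genes were picked with these contrasts known, so nothing is read from the counts.

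Under IL-13 the genotypes differed in all 3 Ly6 genes, and in opposite directions. On these arrays the sex-linked split runs partly with genotype, and the main fit does not separate them. Ly6d was lower in Alb-Cre than in wild-type livers, by 4.55 ± 0.73 on the log2 scale by the brighter probe and 4.57 ± 0.64 by the dimmer one. Even Alb-Cre IL-13 replicate 2, at 861, lay well below the lowest wild-type IL-13 array, at 3595. Ly6e was 1.78 ± 0.18 higher in Alb-Cre IL-13 livers, a 3.43-fold difference, and Ly6c1 was 0.54 ± 0.16 higher. No array of one group entered the range of the other for any of the 3 genes. All 3 were called, where 21.9% of all genes were, 10.7% higher and 11.2% lower, and groups did not overlap for 33.0% of all genes. Without Alb-Cre IL-13 replicate 1 the Ly6d difference was -3.22, and without replicate 2 it was -5.59. Ly6c1 lost its call in this contrast without Alb-Cre IL-13 replicate 2 or 3 or wild-type IL-13 replicate 1 or 2, with values between 0.44 and 0.64 over all arrays left out. It was 0.13 for Ly6c1 without background correction, and it was not called on slide 2 alone, at 0.27, or with the sex-linked covariate, at 0.32.

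Under EGFP none of the 3 genes separated the genotypes. Alb-Cre minus wild type was -0.01 ± 0.63 for Ly6d, which was below detection in both, -0.10 ± 0.15 for Ly6e and -0.27 ± 0.14 for Ly6c1, and arrays of both groups overlapped in each case. The fit called 0 of 3, and 0.00% of all genes, with 364 of 9711 genes at an unadjusted p under 0.05. Arrays did not overlap for 2.80% of genes.

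The IL-13 response differed between the genotypes for every measured Ly6 gene. Taken as the response in Alb-Cre minus that in wild-type livers, the difference was -4.54 ± 0.96 for Ly6d, 1.88 ± 0.24 for Ly6e and 0.81 ± 0.21 for Ly6c1, and 3 of 3 were called, where 13.2% of all genes were, 6.65% higher and 6.50% lower. As the genes were picked for these contrasts, the calls support nothing. The Ly6e value ran between 1.43 and 2.05 over 27 alternative analyses. The Ly6d value ran between -5.58 and -3.21 and was not called on slide 1 alone. The Ly6c1 value was not called on either slide alone or with the sex-linked covariate.

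Ordered by level, Ly6d ran from wild-type IL-13 to Alb-Cre IL-13 and then to the undetected EGFP groups, which did not differ beyond their spread. Ly6e ran from wild-type EGFP through Alb-Cre EGFP and Alb-Cre IL-13, 3 neighbours that overlapped, down to wild-type IL-13, which stood apart. Ly6c1 ran from Alb-Cre IL-13 to wild-type EGFP, whose mean of 5.03 ± 0.24 (SD, n = 4) came with arrays as high as 5.24, so these neighbours overlapped. Below them wild-type IL-13 and Alb-Cre EGFP had the same mean of 4.76.

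Over the 3 Alb-Cre IL-13 arrays Ly6d and Ly6e ran in opposite orders. Replicate 1 had the least Ly6d, at 4.91, and the most Ly6e, at 9.56. Replicate 2 had the most Ly6d, at 9.65, and the least Ly6e, at 8.90, and replicate 3 lay between on both, at 8.16 and 9.26. Among the wild-type IL-13 arrays replicate 2 was highest for both genes. With 3 arrays these are orders only, and no relation was tested.

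**Figure D2:**
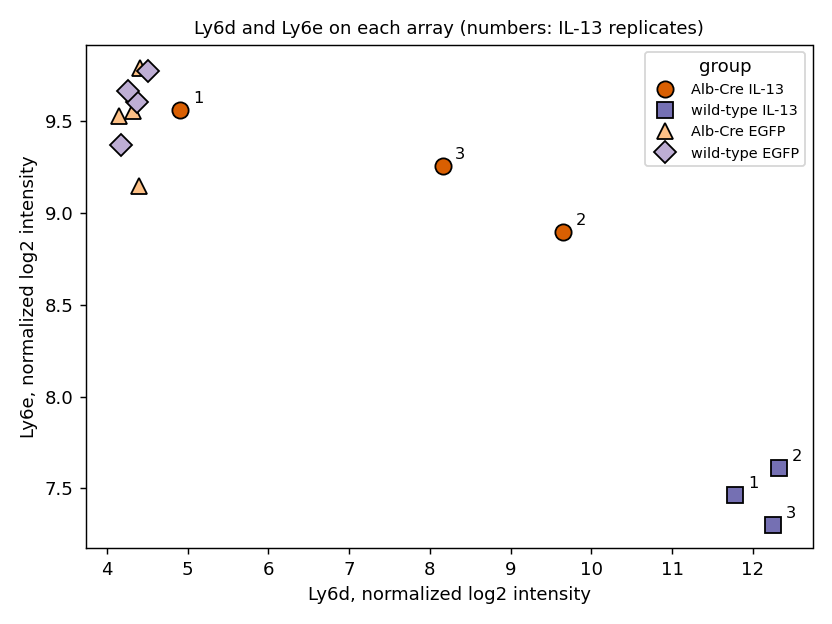
Ly6d (horizontal axis) against Ly6e (vertical axis), normalized log2 intensity, with 1 symbol per array and the replicate number beside each IL-13 array. The 3 wild-type IL-13 arrays lie at lower right, the 8 EGFP arrays at upper left, and the 3 Alb-Cre IL-13 arrays run between them, replicate 1 nearest to the EGFP arrays.

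To find genes with a like profile, each gene's log2 values were centred on their mean over the 14 arrays and set against those of the Ly6 gene by the root mean square difference. For Ly6d the nearest were Rab15, a small GTPase of endosome recycling, at 1.24, Asns (asparagine synthetase) at 1.26, and Chil3, a chitinase-like protein of alternatively activated macrophages, at 1.26. Rab15 averaged 8.62 ± 0.37 in Alb-Cre IL-13 and 10.64 ± 0.30 in wild-type IL-13 livers (SD, n = 3 each), and was undetected on the 8 EGFP arrays. Chil3 averaged 11.91 ± 0.19 in wild-type IL-13 livers and was also undetected under EGFP. Across the 3 Alb-Cre IL-13 arrays Asns followed the Ly6d order, with 5.90, 8.29 and 6.89 for replicates 1, 2 and 3. Rab15, at 8.73, 8.93 and 8.21, and Chil3, at 9.06, 7.73 and 7.20, did not. Chil3 was highest in the replicate where Ly6d was lowest.

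For Ly6e the likeness was close. Ifi27, another interferon-inducible gene, differed from it by 0.17, with means of 11.41 ± 0.36 in Alb-Cre IL-13, 9.70 ± 0.16 in wild-type IL-13, 11.59 ± 0.24 in Alb-Cre EGFP and 11.64 ± 0.33 in wild-type EGFP livers. Its Alb-Cre IL-13 arrays stood at 11.78, 11.07 and 11.38, in the order of Ly6e. Tm7sf2, a sterol reductase, and Pmvk (phosphomevalonate kinase), both enzymes of cholesterol synthesis, followed at 0.23 each. Both also had replicate 1 highest and replicate 2 lowest among the Alb-Cre IL-13 arrays. The nearest genes to Ly6c1 were Zyx (zyxin, of focal adhesions) at 0.13, Hnrnpc, an RNA-binding protein of the nucleus, at 0.17, and Sh3bgrl3 at 0.17. None of these genes is on chromosome 15.

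**Figure D3:**
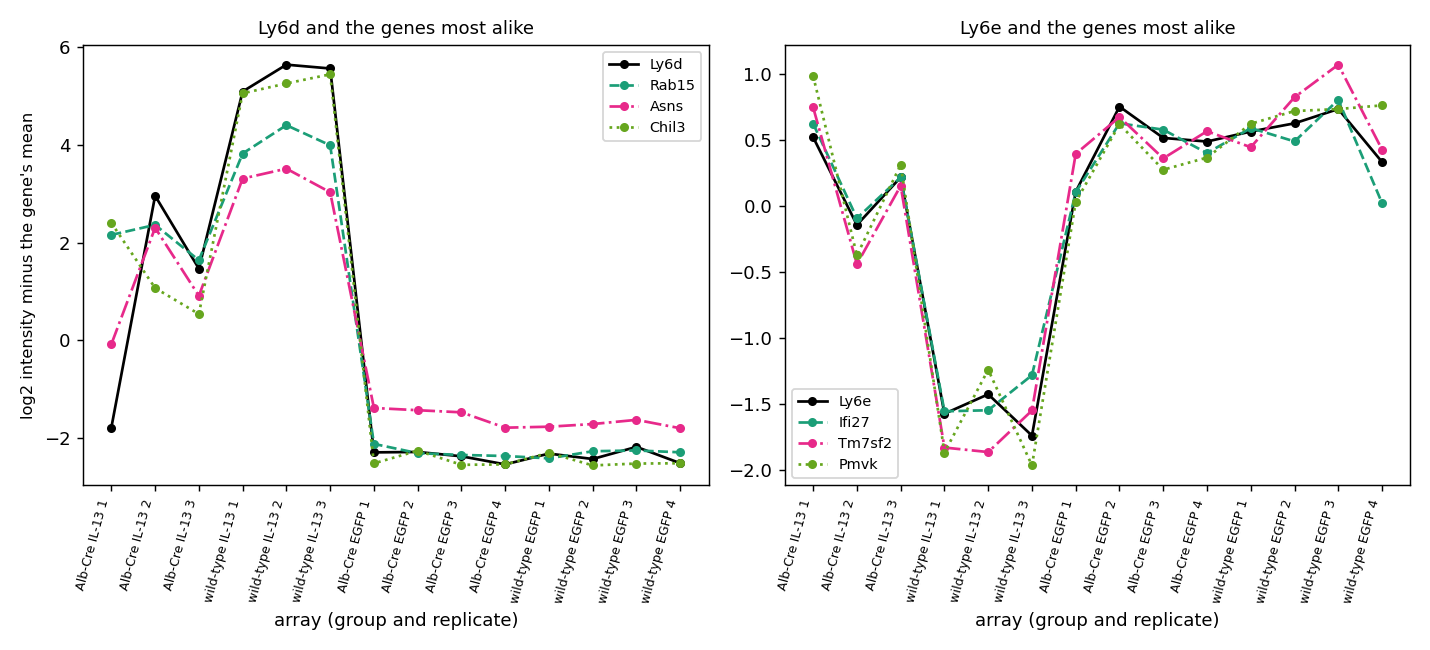
Log2 intensity minus the gene's own mean over the 14 arrays (vertical axis) for Ly6d (left) and Ly6e (right), in black, and their 3 nearest genes, with arrays along the horizontal axis. The Ly6e lines lie closer together but part in places on the IL-13 arrays, as for Pmvk in Alb-Cre IL-13 replicate 1. The Ly6d lines part on the 3 Alb-Cre IL-13 arrays, where Chil3 is highest in replicate 1 and Ly6d lowest.

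The rest of the Ly6/uPAR family had smaller changes than Ly6d. Of 46 other family genes listed, 32 had a probe and 10 passed the filter, and these were tested with limma and adjusted over all 9711 genes. In Alb-Cre livers 1 rose, 2 fell and 7 did not pass, where 18.9% of all genes were called. The median change was 0.01 against -0.02 over all genes. Cd59a and Cd59b, GPI-anchored inhibitors of the complement membrane attack complex, fell by 0.45 (adjusted p = 0.00655) and 0.76 (adjusted p = 0.00281), with all 3 IL-13 arrays below all 4 EGFP arrays in both. Neither was called with the sex-linked covariate, where the changes were -0.14 for Cd59a (adjusted p = 0.713) and -0.75 for Cd59b (adjusted p = 0.159). On slide 2 alone, with 1 IL-13 array, they were -0.31 for both and not called. Lypd1, which binds nicotinic receptors, was undetected under EGFP, averaged 5.39 ± 0.58 under IL-13 (SD, n = 3) and rose at least 1.79-fold (adjusted p = 0.000588).

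In wild-type livers 2 family genes rose, 2 fell and 6 did not pass, close to the 40.7% of all genes called there. The median change was -0.05 against 0.00 over all genes. Cd59a fell by 0.83 (adjusted p = 1.18e-05) and Cd59b fell by 1.70 (adjusted p = 4.77e-07), again with no overlap of arrays. A second Cd59b probe fell by 0.74, with only 1 of 3 wild-type IL-13 arrays detected, so its change is limited by the detection floor. Plaur, the urokinase receptor, rose by 0.90 ± 0.16 (adjusted p = 0.000281), with 5.21 ± 0.18 in wild-type IL-13 livers, against 4.31 ± 0.15 in wild-type EGFP livers, where 1 of 4 arrays was detected. Lynx1, a modulator of nicotinic acetylcholine receptors, rose at least 1.37-fold (adjusted p = 0.00859), and a second Lynx1 probe was undetected throughout. The remaining 6 had changes between -0.32 for Gpihbp1, which holds lipoprotein lipase on capillary walls (adjusted p = 0.0582), and 0.14 for Lypd1. Among these Psca, Ly6g5b, Lypd6 and Spaca4 read near the detection floor in all groups.

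The difference of the responses passed for 3 of the 10, where 13.2% of all genes were called. It was 0.93 ± 0.26 for Lypd1 (adjusted p = 0.0270), 0.94 ± 0.22 for Cd59b (adjusted p = 0.0118) and -0.74 ± 0.22 for Plaur (adjusted p = 0.0395). The second Cd59b probe gave 0.16 ± 0.18 and did not pass, but it was detected on only 2 of 3 Alb-Cre IL-13 and 1 of 3 wild-type IL-13 arrays, so the floor limits this value. Under IL-13, Gpihbp1 was 0.65 higher in Alb-Cre than in wild-type livers (adjusted p = 0.00288). Lypd1, Cd59a and Cd59b were higher and Plaur lower as well, where 21.9% of all genes were called. Cd59a and Plaur were not called in this contrast without Alb-Cre IL-13 replicate 3 or wild-type IL-13 replicate 3. With these left out Cd59a was 0.31 and 0.29 and Plaur -0.60 and -0.54.

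**Figure D4:**
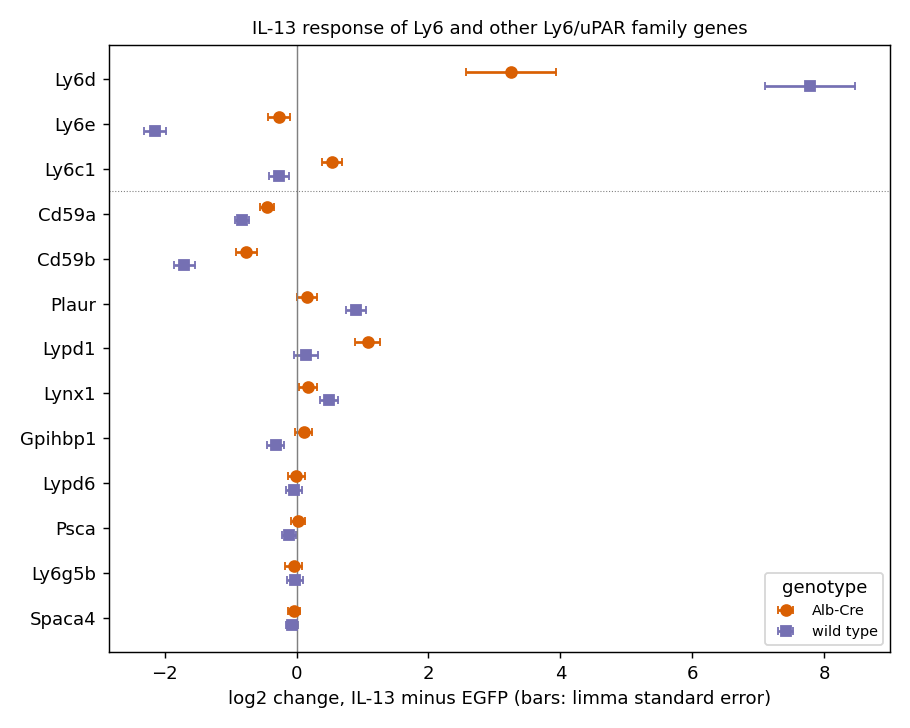
Log2 change of IL-13 minus EGFP (horizontal axis) with its limma standard error for the 3 Ly6 genes, above the dotted line, and the 10 other tested family genes, in Alb-Cre (circles) and wild-type livers (squares). Ly6d lies at 3.25 in Alb-Cre and 7.79 in wild-type livers, beyond every other gene shown.

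Neighbouring genes in the chromosome 15 cluster did not share one direction. The Ly6/uPAR cluster on chromosome 15 holds 22 genes in the RefSeq gene table used for names and order (GRCm38.p6), of which 14 had a probe here. Those with a probe that passed were 6, in order Psca, Lynx1, Ly6d, Ly6e, Ly6c1 and Gpihbp1. No probe passed for the other 8, among them Ly6k, Gml2, Ly6m, Ly6i, Ly6f and Ly6h, and all but Gml2 and Ly6h were undetected on every array. Ly6d, increased under IL-13, and Ly6e, decreased in wild-type livers, have Ly6k, Gml2 and Ly6m between them among the genes with a probe, none of which passed the filter. Among 13 tested genes of other families near the cluster, not all inside it, 1 rose and 2 fell in wild-type livers. There 40.7% of all genes were called. The changes were 0.54 for Them6 (adjusted p = 0.0133), -0.36 for Top1mt (adjusted p = 0.0116) and -0.72 for Pycrl (adjusted p = 0.000249). In Alb-Cre livers 0 of the 13 passed, with a largest change of 0.33 for Them6 (adjusted p = 0.176).

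**Figure D5:**
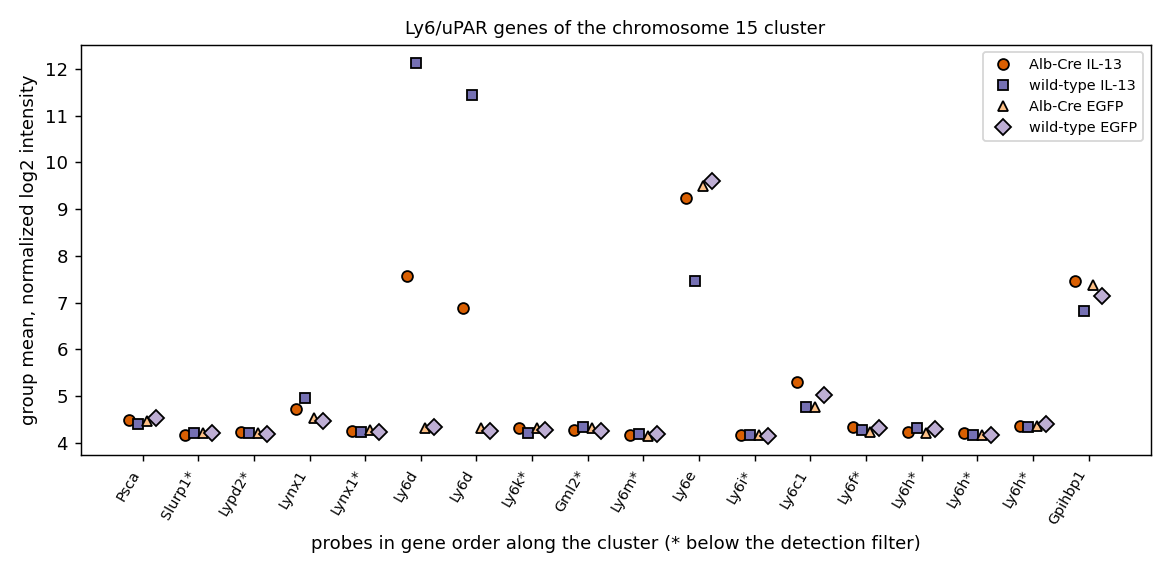
Group mean normalized log2 intensity (vertical axis) of each Ly6/uPAR probe of the chromosome 15 cluster, in gene order along the horizontal axis, by group; an asterisk marks probes below the detection filter. The 2 Ly6d probes are high under IL-13, highest in wild type, Ly6e is lowest in wild-type IL-13 livers, and most neighbours lie near the detection floor in all groups.

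Interferon stimulated genes, of which Ly6e is known as one, mostly fell in wild-type livers. Of 25 tested, 3 fell and 1 rose in Alb-Cre livers, where 7.83% of all genes fell and 11.1% rose. The median change was -0.04 against -0.02 over all genes. In wild-type livers 17 fell and 2 rose, where 19.2% of all genes fell and 21.5% rose, with a median of -0.69 against 0.00. Their summed normalized intensity overlapped between wild-type IL-13 (9343 to 10191) and wild-type EGFP livers (9584 to 11069). The sum was 10975 to 12522 in Alb-Cre IL-13 and 8945 to 11453 in Alb-Cre EGFP livers. Gbp3, an interferon-inducible GTPase, fell by 1.57 in Alb-Cre livers (adjusted p = 0.000146) and fell by 3.04 in wild-type livers (adjusted p = 4.60e-08). Ifit3, an antiviral protein, fell by 1.10 in Alb-Cre (adjusted p = 0.00425) and fell by 3.04 in wild-type livers (adjusted p = 8.16e-08). Oasl2, of the oligoadenylate synthetase family, had a change of -0.16 in Alb-Cre livers (adjusted p = 0.446) and fell by 1.63 in wild-type livers (adjusted p = 1.08e-07). The difference of the responses was above 0 and passed for 11 of the 25, against 6.65% of all genes, and for 0 in the other direction. It was 3 of 25 on slide 1 alone and 6 of 25 on slide 2 alone or with the sex-linked covariate.

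Genes that build and attach the GPI anchor, which GPI-anchored Ly6 proteins need, showed no common direction. Of 21 tested, 0 rose and 1 fell in Alb-Cre livers, where 18.9% of all genes were called. In wild-type livers 4 rose and 6 fell, where 40.7% of all genes were called. The medians were -0.01 and 0.05. Pigf and Dpm3 rose by 0.51 (adjusted p = 0.000765) and 0.75 (adjusted p = 0.00151) in wild-type livers, and Pgap2, which remodels the anchor lipid, fell by 0.56 (adjusted p = 0.00187).

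Markers of cells known to carry Ly6 antigens were set beside these values. In Alb-Cre livers 18.9% of all genes were called, and in wild-type livers 40.7%. Of 10 B cell genes with a probe, 3 were tested and 0 passed in either genotype. Their summed normalized intensity was 18.3 to 34.0 in Alb-Cre IL-13, 16.1 to 27.2 in wild-type IL-13, 17.6 to 31.8 in Alb-Cre EGFP and 13.8 to 24.9 in wild-type EGFP livers. The B cell marker Ms4a1 was undetected on all 14 arrays and Cd79a was detected on 1, a wild-type IL-13 array. Of 5 tested genes of plasmacytoid dendritic cells, which also carry Ly6d, 2 rose in Alb-Cre livers. In wild-type livers 1 rose and 1 fell, close to the 40.7% of all genes called there. The defining marker of these cells, Siglech, had a change of -0.15 in wild-type livers (adjusted p = 0.479). The summed level of these 5 genes was 527 to 586 in Alb-Cre IL-13 and 560 to 577 in wild-type IL-13 livers. It was 369 to 383 in Alb-Cre EGFP and 320 to 378 in wild-type EGFP livers. Their median change was 0.12 in Alb-Cre and -0.15 in wild-type livers, so the higher wild-type sum goes against the median.

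Of 7 monocyte genes tested, 2 rose and 0 fell in Alb-Cre livers, where 18.9% of all genes were called. In wild-type livers 1 rose and 4 fell, where 40.7% of all genes were called, and Lyz2 fell by 1.39 (adjusted p = 0.000195). Cd14 rose by 0.80 in Alb-Cre (adjusted p = 0.0401) and 6.06 in wild-type livers (adjusted p = 6.10e-11). Ccr2, which marks the Ly6c-high monocytes of blood, was undetected on all 14 arrays. The summed level of the 7 was 946 to 1933 in Alb-Cre IL-13, 3073 to 6669 in wild-type IL-13, 1604 to 1955 in Alb-Cre EGFP and 1527 to 1859 in wild-type EGFP livers. The list's median change was -0.15 in Alb-Cre and -0.71 in wild-type livers, so the higher wild-type sum, which includes Cd14, goes against most of its genes. Of 18 endothelial genes 7 rose and 1 fell in Alb-Cre livers, where 18.9% of all genes were called. In wild-type livers 6 rose and 4 fell, where 40.7% of all genes were called. The defining endothelial markers did not move as one. Pecam1 rose in both genotypes, by 1.46 in Alb-Cre (adjusted p = 2.62e-06) and 1.32 in wild-type livers (adjusted p = 2.80e-06). Cdh5 had changes of 0.28 in Alb-Cre (adjusted p = 0.127) and -0.26 in wild-type livers (adjusted p = 0.106). Kdr had changes of -0.07 in Alb-Cre (adjusted p = 0.770) and -0.25 in wild-type livers (adjusted p = 0.130). In wild-type livers all 3 IL-13 arrays lay below all 4 EGFP arrays for Cdh5 and for Kdr. The endothelial sum was 4253 to 5211 in Alb-Cre IL-13 and 3696 to 5017 in wild-type IL-13 livers. It was 5468 to 6207 in Alb-Cre EGFP and 5448 to 5677 in wild-type EGFP livers. The median change of the endothelial list was 0.21 in Alb-Cre and 0.03 in wild-type livers. The lower sums under IL-13 thus do not stand for most of its genes.

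Granulocyte and T cell markers were examined too, as these cells also carry Ly6 antigens. Of all genes, 18.9% were called in Alb-Cre and 40.7% in wild-type livers. Of 9 neutrophil genes 7 rose and 0 fell in each genotype, S100a8 by 3.15 in Alb-Cre (adjusted p = 0.000236) and 3.25 in wild-type livers (adjusted p = 6.52e-05). Their sum was 841 to 2128 in Alb-Cre IL-13, 1217 to 2797 in wild-type IL-13, 98.6 to 214 in Alb-Cre EGFP and 104 to 353 in wild-type EGFP livers. Of 3 eosinophil genes 3 rose in Alb-Cre and 1 in wild-type livers. Their sum was 910 to 2180 in Alb-Cre IL-13, 2604 to 3942 in wild-type IL-13, 6.58 to 10.2 in Alb-Cre EGFP and 9.54 to 12.3 in wild-type EGFP livers. Rnase2a, an eosinophil-associated ribonuclease also counted among the type 2 response genes, rose at least 55.5-fold in Alb-Cre (adjusted p = 3.06e-11) and at least 146-fold in wild-type livers (adjusted p = 1.48e-12). The eosinophil list's median change was only 0.35 in Alb-Cre and 0.10 in wild-type livers. Its sum, which includes Rnase2a, thus does not stand for most of its genes. The defining eosinophil marker Epx was undetected on all 6 IL-13 arrays. Prg2 was detected on 2 of 3 Alb-Cre IL-13 and 1 of 3 wild-type IL-13 arrays. Of 14 T and NK cell genes only Cd3g and Thy1 passed the filter. Neither was called in Alb-Cre livers, and both fell in wild-type livers, Cd3g at least 1.17-fold (adjusted p = 0.00231) and Thy1 with a change of -0.46 (adjusted p = 0.00650). The sum of both was 14.2 to 18.3 in Alb-Cre IL-13, 5.82 to 9.94 in wild-type IL-13, 11.1 to 18.0 in Alb-Cre EGFP and 16.9 to 28.0 in wild-type EGFP livers. What part any of these cells has in the Ly6d, Ly6e or Ly6c1 values was not tested.

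Of 13 hepatocyte markers 0 rose and 2 fell in Alb-Cre livers, where 18.9% of all genes were called. In wild-type livers 1 rose and 7 fell, where 40.7% of all genes were called. The sum of the 13 was 54855 to 62453 in Alb-Cre IL-13, 48111 to 53586 in wild-type IL-13, 64010 to 68574 in Alb-Cre EGFP and 65923 to 72018 in wild-type EGFP livers. Of 12 genes of injured or fetal hepatocytes 9 rose and 1 fell in Alb-Cre livers, where 11.1% of all genes rose. In wild-type livers 8 rose and 1 fell, where 21.5% of all genes rose. The sum of the 12 was 9906 to 19683 in Alb-Cre IL-13, 22240 to 30008 in wild-type IL-13, 2912 to 6296 in Alb-Cre EGFP and 4095 to 6206 in wild-type EGFP livers. On the 3 Alb-Cre IL-13 arrays the median change of the 12 was 1.01, 0.89 and 0.77 in replicates 1, 2 and 3, so it did not follow the order of Ly6d. The part of hepatocytes in the Ly6d level was not tested.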

How the data were processed

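Total RNA of 14 whole-liver samples was hybridised to Illumina arrays. For every probe and array the deposited scanner table gives a linear intensity beside its detection p-value, per the file headers, and was exported with GenomeStudio 2011.1, per the submitters' processing notes. The authors also deposited a log2 table, in which each array's intensity is multiplied by 1 factor (4.52 to 4.85) and no background is removed. Other steps before deposit are not given in the sources used here.

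Intensities were corrected and normalized with neqc in limma 3.58.1 (R 4.3.3), with the background inferred from the detection p-values, an offset of 16 and quantile normalization. Probes with a detection p under 0.05 on at least 3 arrays were kept (14109 of 25697), and the brightest kept probe stood for each gene (9711 genes). Of all probes, 23978 have 1 gene symbol and 1719 none. A limma fit with 1 mean per group over 14 arrays (10 residual degrees of freedom) gave each contrast, two-sided, with Benjamini-Hochberg adjustment over all genes and a threshold of 0.05. The steps were also tested on simulated data.

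The Ly6 genes and all gene lists were chosen with earlier results of these data known. The changes of the Ly6 genes are therefore descriptions without p-values. The counts and p-values of the listed genes carry the same limit, all the more for genes named by smallest p. The text names every tested gene of the family, up to 3 genes per other list by smallest p in wild type, defining markers, and the 3 nearest patterns per Ly6 gene. Each of the 2 slides holds all 4 groups. The number of arrays limits the precision. Alternatives are given at the end.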

Additional observations from a re-analysis of the deposited data

Results flagged for a closer look

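The IL-13 response differed between Alb-Cre and wild-type livers in 6 of 13 tested genes of the Ly6/uPAR family, where 13.2% of all genes were called, given as the response in Alb-Cre minus that in wild type on the log2 scale. Ly6d had -4.54 ± 0.96, Ly6e 1.88 ± 0.24 and Ly6c1 0.81 ± 0.21, and these 3 genes were chosen with this pattern known, so the count of 6 is no evidence about the family. Of the 10 other family genes 3 were called. Cd59b had 0.94 ± 0.22 (limma, adjusted p = 0.0118), Lypd1 0.93 ± 0.26 (limma, adjusted p = 0.0270) and Plaur -0.74 ± 0.22 (limma, adjusted p = 0.0395). Lypd1 was not called without Alb-Cre IL-13 replicate 2 or 3 or wild-type IL-13 replicate 2 or 3, with values of 0.73 to 1.27 over all arrays left out in turn. Plaur was not called without Alb-Cre IL-13 replicate 1 or 3, wild-type IL-13 replicate 3 or wild-type EGFP replicate 1, 2 or 3, with values of -0.84 to -0.58. Cd59b kept its call with each array left out, at 0.71 to 1.08. Over all 27 alternative analyses, those with an array left out included, the call was kept in 24 for Cd59b, 18 for Lypd1 and 16 for Plaur. Among the 30 sets of 4 EGFP arrays examined, 1 per family probe and genotype, 0 had an array far from the other 3.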

How the results depend on the processing

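No called change turned its direction under any alternative run. The Ly6e change in wild type, and its differences between genotypes under IL-13 and between responses, kept their calls, as did the Ly6d change in wild type and its difference under IL-13, but the slide 2 fit has 1 array in each IL-13 group and takes its spread from the EGFP arrays alone. On slide 1 alone the calls lost were Ly6d in Alb-Cre (2.87) and in the difference of responses (-4.86) and Ly6c1 in both (0.65 and 1.01). There, 851 genes were called in Alb-Cre, 226 in the difference and 922 between genotypes under IL-13. The family had 0 calls in the difference and 1 under IL-13, and of the interferon stimulated genes 1 fell in Alb-Cre and 3 were higher in the difference. On slide 2 alone Ly6c1 lost its calls in Alb-Cre (0.40), the difference (0.48) and under IL-13 (0.27), and genes called were 2449 in wild type, 620 in Alb-Cre, 597 in the difference, 937 under IL-13 and 1 under EGFP. The family had 1 call in Alb-Cre and 3 under IL-13, and 6 interferon stimulated genes were higher in the difference. The slide fits have fewer arrays. The effect of the sex-linked covariate was estimated within wild-type IL-13 livers alone. With it, Ly6d (3.05) and Ly6c1 (0.22) in Alb-Cre and Ly6c1 in the difference (0.60) and under IL-13 (0.32) were not called. That fit called 815 genes in Alb-Cre and 1257 under IL-13, 1 family gene in Alb-Cre, 1 interferon stimulated gene lower in Alb-Cre and 6 higher in the difference. With only the groups compared, 1235 genes and 3 family genes were called under IL-13. Family calls in the difference were 1 in the authors' log2 table, 0 without background correction and 1 with no detection filter. The cause of these changes was not tested.

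Leaving out each array in turn gave Ly6d changes of 2.21 to 4.58 in Alb-Cre, 7.68 to 7.96 in wild type, -5.58 to -3.21 in the difference, -5.59 to -3.22 under IL-13 and -0.06 to 0.05 under EGFP. Ly6e ran over -0.43 to -0.10, -2.22 to -2.07, 1.72 to 2.05, 1.62 to 1.95 and -0.19 to 0.02 in the same contrasts, and Ly6c1 over 0.48 to 0.65, -0.38 to -0.18, 0.72 to 0.92, 0.44 to 0.64 and -0.39 to -0.20. Genes called were 1332 to 2069, 3431 to 3981, 869 to 1349, 1476 to 2095 and 0 to 0. Family calls were 3 to 3, 4 to 5, 1 to 4, 3 to 5 and 0 to 0, and moved most without replicate 3 of Alb-Cre IL-13 or of wild-type IL-13. Interferon stimulated genes were called lower 2 to 3 times in Alb-Cre and 16 to 18 in wild type, and higher 9 to 12 times in the difference.

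With the replicate number of the titles as a block, Ly6d changed by 3.20 in Alb-Cre and 7.73 in wild type, Ly6e by -0.30 and -2.18 and Ly6c1 by 0.57 and -0.24, and no call of a Ly6 gene changed. Whether the numbers pair the samples cannot be told from so few arrays, and the numbers also run with the slide. Deviations from the group means of same-numbered arrays correlated at -0.12 to 0.28 over 13 pairs, with 3 above 0.1. Levels near the detection floor, as for Ly6c1, Lypd1, Plaur and Lynx1, limit how small a change can be read.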
